A study of Homo sapiens with 6 samples.

Results

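The insulin-like growth factor (IGF) binding proteins IGFBP2 to IGFBP7, the IGF receptors IGF1R and IGF2R and the adaptors IRS1 and IRS2 were followed in LX-2 cells, a human hepatic stellate cell line. These 10 genes were chosen by symbol from the 22701 genes of the deposited FPKM table (fragments per gene length and library depth). All 10 were found, and 9 of them had a mean of at least 1 FPKM over the libraries and were tested. The first group was given TGF-β and 20 µM LIG (ligustilide, a phthalide of Angelica and Ligusticum roots) and is called LIG below. The other was given TGF-β alone, and each group has 3 libraries. The labels state TGF-β at 5 µg/mL for both groups, so all 6 libraries carry that cytokine, an activator of stellate cells; no cells without it were analysed here. LX-2 is a single immortalized line, the treatment time is not given, and the unit of the TGF-β dose is as labelled. Whether replicates came from separate cultures is not stated, and p-values here measure the spread between these libraries, which may be technical.

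IGF1 and IGF2 are carried outside cells by the binding proteins, which hold them away from their receptors and release them when cleaved by proteases such as PAPPA. IGF1R is the receptor tyrosine kinase that signals through IRS1 and IRS2 to PI3-kinase and AKT, whereas IGF2R takes up IGF2 for breakdown and has no kinase. Activated stellate cells are known to make several of the binding proteins, and they respond to IGFs by dividing and by making matrix.

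Within this set, IGFBP3 fell with LIG to 0.41 times its level with TGF-β alone, and no other member passed; without a filter on low values none did. IGFBP5 averaged 0.55 times its level with TGF-β alone, with no overlap between the groups, and did not pass. The abundant binding proteins IGFBP4 and IGFBP6 averaged 0.945 and 0.963 times their levels with TGF-β alone, with groups that overlapped. Of the 9 members tested, 1 was called lower and 0 higher. Of the 10695 genes tested, 0.692% were called (74 genes; limma, Benjamini-Hochberg adjusted p below 0.05), 0.505% lower and 0.187% higher. Leaving out LIG replicate 1, LIG replicate 2, TGF-β replicate 1, 2 or 3 gave 22, 20, 21, 29 or 11 genes in place of 74, and IGFBP3 was among those called each time. The median log2 change of the 9 was -0.08, against 0.025 over all genes tested. Fold changes here are on log2(FPKM + 1), LIG minus TGF-β alone, a scale that understates changes of genes with low FPKM. In bulk libraries, fewer cells that express a gene and less RNA per cell cannot be told apart.

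**Figure D1:**
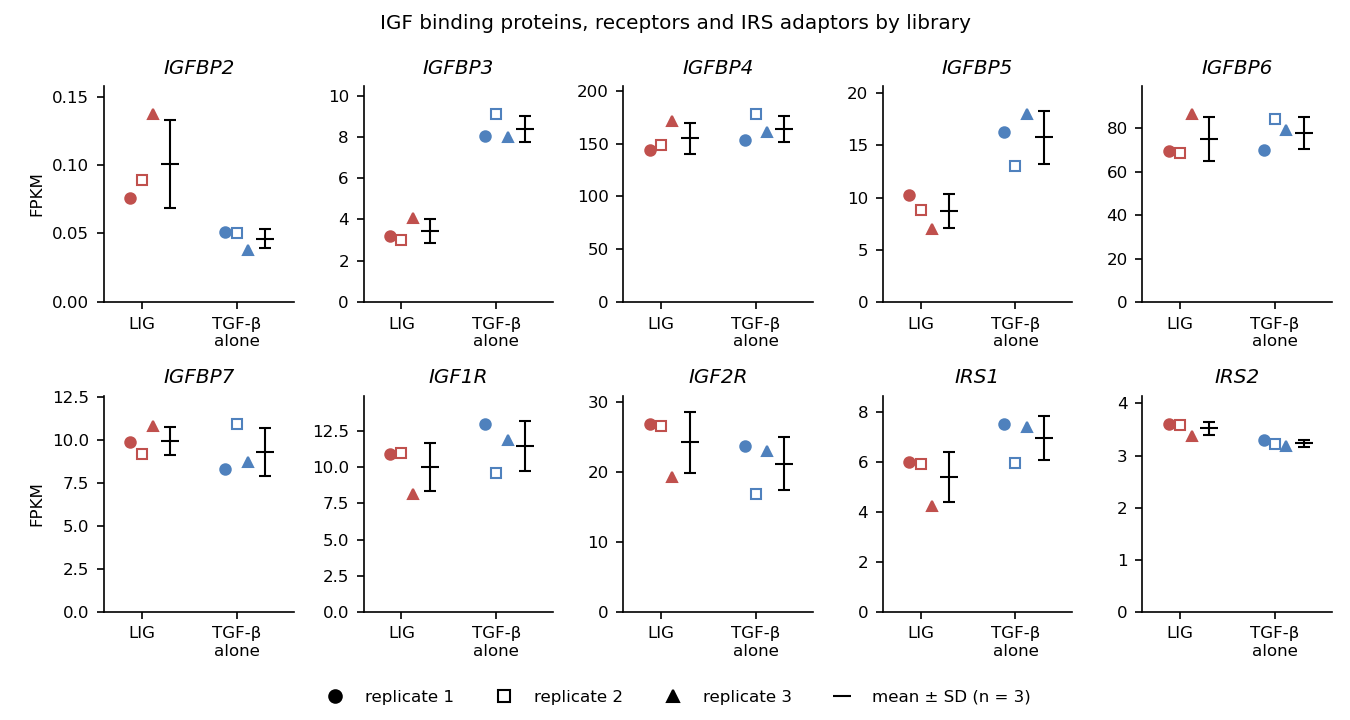
FPKM of each member by library (y axis, linear, from 0), LIG libraries at the left and TGF-β alone at the right of each panel; symbols are replicates and the bar is the mean ± SD (n = 3). IGFBP3 lies between 3.02 and 4.09 FPKM in LIG libraries and between 7.99 and 9.10 FPKM with TGF-β alone, whereas IGFBP4 and IGFBP6 overlap between the groups.

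Library depth was even, with 38250984 to 39101089 fragments recovered per library over all genes, but LIG replicate 3 and TGF-β replicate 2 stood apart from the other 4 libraries. The first principal component, with 55.1% of the variance, put them at 18.1 and 7.8 and the others between -9 and -5.4. Stellate and mesenchymal markers were present (8 of 13 listed markers in the table had a mean of at least 1 FPKM, summed level 2429 to 2788 FPKM in LIG libraries and 2574 to 2753 FPKM with TGF-β alone), led by VIM and COL1A1, whereas DES was at 0.0038 FPKM in each group. Of these markers COL3A1 fell (9.96 ± 1.6 FPKM with LIG and 20.3 ± 2.41 FPKM with TGF-β alone, SD, n = 3 each; log2 change -0.96, limma adjusted p = 0.0144). COL1A1 and PDGFRB were lower and TIMP1 higher with LIG without overlap, and did not pass. ACTA2 averaged 2.97 ± 0.25 FPKM with LIG and 2.77 ± 0.66 FPKM with TGF-β alone (SD, n = 3 each), and its groups overlapped, as did those of HAND2 and VIM. TGF-β replicate 3 differed from its group in other mesenchymal markers: COL1A2 was at 5.08, 3.28 and 3.24 FPKM in LIG replicates 1, 2 and 3, and at 0.675, 0.708 and 6.73 FPKM in TGF-β replicates 1, 2 and 3. DCN, LUM and PDGFRA were likewise highest in TGF-β replicate 3, with the LIG libraries between it and the other libraries with TGF-β alone. Hepatocyte markers summed to 9.0 to 9.64 FPKM with LIG and 9.51 to 10.2 FPKM with TGF-β alone, of which 2 of 6 (SERPINA1 and CPS1) reached 1 FPKM. Endothelial markers, 0 of 6 at 1 FPKM, summed to 0.383 to 0.548 FPKM with LIG and 0.458 to 0.652 FPKM with TGF-β alone. Leukocyte markers summed to 14.9 to 16.7 FPKM with LIG and 13.8 to 16.03 FPKM with TGF-β alone. CD68 was the one of 8 at 1 FPKM, and PTPRC was at 0.011 FPKM with LIG and 0.0079 FPKM with TGF-β alone. Epithelial markers were lower with LIG in sum (273.7 to 341 FPKM, against 371 to 406 FPKM with TGF-β alone), with KRT7, KRT8 and KRT18 the 3 of 5 at 1 FPKM, none of which passed. The defining epithelial gene EPCAM was at 0.039 FPKM with LIG and 0.011 FPKM with TGF-β alone, and KRT19 at 0 in all LIG libraries and at 0.050 FPKM with TGF-β alone. The part of these markers in the results was not tested.

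The distance of both libraries from their group followed gene length over all genes, and the tested members split by length in the same direction. LIG replicate 3 minus the mean of LIG replicates 1 and 2 had a Spearman correlation with length of -0.71 over the 10695 genes, which share those libraries. TGF-β replicate 2 minus the mean of TGF-β replicates 1 and 3 had one of -0.58. Here length is the whole number of bases implied by the steps of each gene's FPKM values. The 5 members over 5000 bases were IGFBP5, IGF1R, IGF2R, IRS1 and IRS2. They were lower in LIG replicate 3 at log2 differences of -0.46 to -0.07, and in TGF-β replicate 2 at -0.45 to -0.005. IRS2 moved least, at -0.07 in LIG replicate 3 and -0.005 in TGF-β replicate 2, less than the medians of all genes over 5000 bases. The 4 shorter tested members (IGFBP3, IGFBP4, IGFBP6 and IGFBP7) were higher, by 0.16 to 0.32 in LIG replicate 3 and 0.16 to 0.33 in TGF-β replicate 2. Over all genes the medians in LIG replicate 3 and TGF-β replicate 2 were -0.14 and -0.07 above 5000 bases (4038 genes) and 0.13 and 0.09 at or below it (6657 genes). The part of this pattern in single results was not tested, but 2 further fits bear on it. One leaves out both libraries, whose selection makes the spread of the rest small. The other, chosen after seeing the data, subtracts each library's smooth trend on length.

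**Figure D2:**
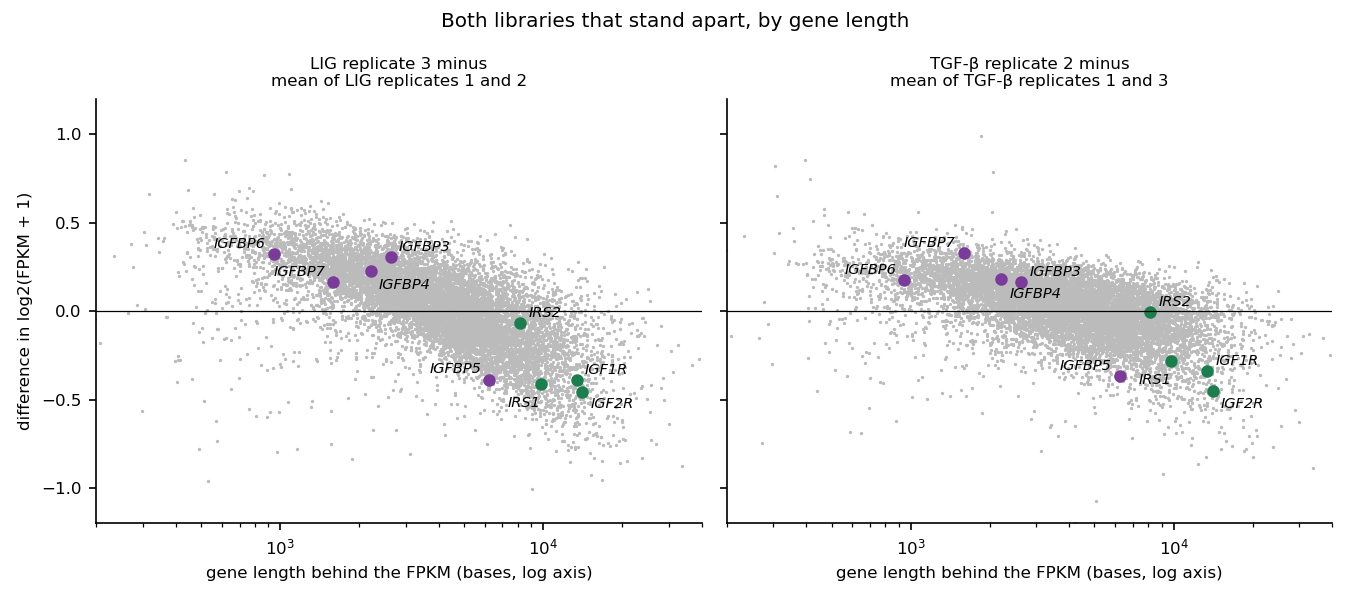
Difference in log2(FPKM + 1) (y axis) between LIG replicate 3 and its group's other libraries (left) and between TGF-β replicate 2 and its group's other libraries (right), against gene length in bases (x axis, log scale); grey points are tested genes, purple points binding proteins, green points receptors and adaptors. IGF1R, IGF2R, IRS1 and IGFBP5 lie below 0 and the 4 short binding proteins above 0 in both panels, and 10 and 8 genes lie outside the plotted range.

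IGFBP3 encodes the main IGF carrier of serum, and also has actions on cells that do not need IGFs. The gene lies on chromosome 7 from 45912245 to 45921874, minus strand (ENSG00000146674.14; coordinates here are GENCODE release 29 on GRCh38). IGFBP5, a binding protein that attaches to extracellular matrix and bone mineral, lies on chromosome 2 from 216672105 to 216695525, minus strand (ENSG00000115461.4). The 250 bases before the RefSeq start of each, on its coding strand, are shown because these were the tested members with the largest log2 changes. For both genes the RefSeq and GENCODE starts differ, and the IGFBP3 window lies inside the GENCODE gene. Capitals mark matches, on either strand, to motifs for the TATA box (TATANA), GC box (GGGCGG), AP-1 (TGANTCA), SMAD factors (CAGAC), TEAD factors (CATTCC), the antioxidant response element (TGACNNNGC) and hypoxia factors (ACGTG).
IGFBP3, chr7:45921273-45921522, GRCh38.p14, minus strand: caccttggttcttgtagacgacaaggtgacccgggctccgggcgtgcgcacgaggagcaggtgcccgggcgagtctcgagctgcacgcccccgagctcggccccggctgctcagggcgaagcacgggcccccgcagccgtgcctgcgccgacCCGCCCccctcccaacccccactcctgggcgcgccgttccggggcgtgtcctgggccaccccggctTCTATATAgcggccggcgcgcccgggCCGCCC
IGFBP5, chr2:216695550-216695799, GRCh38.p14, minus strand: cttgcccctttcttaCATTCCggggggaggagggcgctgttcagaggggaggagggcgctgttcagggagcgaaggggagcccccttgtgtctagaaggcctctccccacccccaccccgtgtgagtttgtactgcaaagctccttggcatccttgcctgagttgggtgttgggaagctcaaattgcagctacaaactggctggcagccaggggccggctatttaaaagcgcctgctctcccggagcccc

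The IGFBP3 window, with 76.0% G and C against a median of 58.0% over 35116 promoters, holds TATA box matches that overlap each other from -32 to -25 and GC box matches at -98 to -93 and -6 to -1, counted back from -1 at the last base before the start. The IGFBP5 window (61.2% G and C) holds a single match, to the TEAD motif at -235 to -230. Of all promoters of this length, 17.7% hold the TATA motif, 42.6% the GC box and 11.9% the TEAD motif. The SMAD motif is in 38.0%, the hypoxia motif in 18.5%, the antioxidant motif in 10.9% and the AP-1 motif in 6.57% of promoters, and neither window holds any of these letters. Of the 9 members in the RefSeq table (IGFBP7 is the one left), 8 hold a GC box, 3 the TEAD motif and 2 each the TATA and hypoxia motifs. The SMAD and antioxidant motifs are in 1 each (IGFBP2 and IRS2) and the AP-1 motif in 0. These matches are letters in a window and show no binding.

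In the order of replicates 1, 2 and 3, which holds for all values by library, IGFBP3 was at 3.22, 3.02 and 4.09 FPKM with LIG and at 8.04, 9.10 and 7.99 FPKM with TGF-β alone. The highest LIG library was thus well under the lowest library with TGF-β alone. The means were 3.44 ± 0.57 FPKM with LIG and 8.38 ± 0.63 FPKM with TGF-β alone (SD, n = 3 each), from 305 to 422 fragments per library with LIG and 814 to 934 with TGF-β alone. On the log2 scale it fell by 1.08 ± 0.10 (SE), with a 95% interval of -1.32 to -0.85 (limma adjusted p = 0.00528). Among the levels of all genes tested, IGFBP3 stood at percentile 23.4 with LIG and 48.5 with TGF-β alone. LIG replicate 3 and TGF-β replicate 2 were each the highest library of their group for this gene, as for the other short members tested. Leaving out both gave a log2 change of -1.13, and removing the length trend gave -1.12. Without TGF-β replicate 3, which differs in mesenchymal markers, it was -1.11 (limma adjusted p = 0.0451). The call was lost in the fit without a filter on low values (limma adjusted p = 0.0608). The neighbouring IGFBP1 gene, 18.6 kb away on the opposite strand, had 1 fragment in LIG replicate 3 and none in the other 5 libraries.

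IGFBP5 was at 10.2, 8.85 and 7.04 FPKM with LIG and at 16.3, 13.1 and 18.0 FPKM with TGF-β alone. The groups did not overlap, with LIG replicate 3 the lowest of its group and TGF-β replicate 2 the lowest of the other. The means were 8.71 ± 1.6 FPKM with LIG and 15.8 ± 2.51 FPKM with TGF-β alone (SD, n = 3 each), and the log2 change of -0.79 ± 0.15 (SE) missed the threshold (limma adjusted p = 0.0667). Its 95% interval ran from -1.13 to -0.46. It passed with the length trend removed (-0.80, limma adjusted p = 0.00625; 2.62% of all genes then passed) and without both libraries that stand apart (-0.78, limma adjusted p = 0.000797; 4.65% passed). Over the 19 alternative fits adjusted p ran from 0.000797 to 0.327. An antisense transcript, AC007563.2, shares 298 exon bases with IGFBP5 on the opposite strand, and whether counting used strand is not stated.

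IGFBP2, a binding protein often made by dividing cells, lies 7.7 kb from IGFBP5 and points toward it. It had 6, 7 and 11 fragments with LIG and 4, 4 and 3 with TGF-β alone, averaging 0.101 FPKM with LIG and 0.046 FPKM with TGF-β alone. The sums were 24 fragments with LIG and 11 with TGF-β alone, a ratio of 2.18 with an exact 95% interval of 1.03 to 4.93 that covers counting error only. The groups did not overlap, but the gene was below the mean of 1 FPKM set for the test. In the fit without that filter its log2 change was 0.07 (limma adjusted p = 0.533).

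IGFBP4, which holds IGFs away from their receptors until PAPPA cleaves it, was the most abundant member. It was at 144, 149 and 172 FPKM with LIG and at 153, 178 and 160.6 FPKM with TGF-β alone, so the groups overlapped. The log2 change was -0.08 with a 95% interval of -0.30 to 0.13 (limma adjusted p = 0.922). IGFBP6, which prefers IGF2, was at 69.8, 68.5 and 86.6 FPKM with LIG and at 70.0, 84.3 and 79.2 FPKM with TGF-β alone (log2 change -0.06, 95% interval -0.31 to 0.19, limma adjusted p = 0.964). In both genes the highest library of each group was the one that stands apart. IGFBP7, a relative that binds IGFs weakly and is deposited in matrix and vessel walls, was at 9.92, 9.16 and 10.8 FPKM with LIG and at 8.31, 10.9 and 8.72 FPKM with TGF-β alone. Its log2 change was 0.09, with a 95% interval of -0.15 to 0.34 (limma adjusted p = 0.923). IGFBP7 shares 270 exon bases with POLR2B and 94 with IGFBP7-AS1 on the opposite strand.

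Summed over IGFBP2 to IGFBP7, binding protein transcripts came to 237, 238.5 and 280.3 FPKM with LIG and 256, 295 and 275 FPKM with TGF-β alone, and the groups overlapped. IGFBP4 and IGFBP6 together made up 91.1 ± 1.01% of that sum with LIG and 87.8 ± 0.87% with TGF-β alone (SD, n = 3 each). IGFBP3 made up 1.36 ± 0.10% with LIG and 3.05 ± 0.12% with TGF-β alone, and IGFBP5 made up 3.51 ± 0.92% with LIG and 5.78 ± 1.18% with TGF-β alone. Set against IGFBP4 in the same library, IGFBP3 was at 0.0223, 0.0203 and 0.0238 with LIG and at 0.0525, 0.0512 and 0.0498 with TGF-β alone. These ratios varied little within a group, the libraries that stand apart included. IGFBP3 over IGFBP5 was at 0.314, 0.341 and 0.581 with LIG and at 0.494, 0.697 and 0.444 with TGF-β alone, and the groups overlapped.

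IGF1R (chromosome 15, 98648539 to 98964530) was at 10.9, 11 and 8.14 FPKM with LIG and at 13, 9.62 and 11.9 FPKM with TGF-β alone. IGF2R (chromosome 6, 159969099 to 160113507) was at 26.9, 26.6 and 19.2 FPKM with LIG and at 23.7, 16.8 and 23.0 FPKM with TGF-β alone. Both receptors overlapped between the groups, and in both the library that stands apart was the lowest of its group. The log2 change was -0.18 for IGF1R (95% interval -0.50 to 0.13, limma adjusted p = 0.825) and 0.18 for IGF2R (95% interval -0.18 to 0.55, limma adjusted p = 0.871). Without both libraries that stand apart, IGF2R passed at a log2 change of 0.19 (limma adjusted p = 0.0324), which it did in none of the other 18 alternatives (limma adjusted p from 0.312 to 0.9999).

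The ratio of the receptors, both long transcripts, varied less between libraries of a group than either level. IGF2R over IGF1R was 2.46, 2.41 and 2.36 with LIG and 1.82, 1.75 and 1.94 with TGF-β alone. Every LIG library was above every library with TGF-β alone, with means of 2.41 ± 0.05 with LIG and 1.84 ± 0.09 with TGF-β alone (SD, n = 3 each). This ratio and the others were chosen after their values were seen, and 16.5% of all pairs of genes above 0 in every library had ratios that did not overlap between the groups. No test was made: with 3 libraries a group, 0.1 is the smallest two-sided p of an exact permutation test.

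IRS1 and IRS2 are the docking proteins that link the activated receptor to PI3-kinase. IRS1 (chromosome 2, 226731317 to 226799759) was at 6.02, 5.94 and 4.25 FPKM with LIG and at 7.53, 5.96 and 7.41 FPKM with TGF-β alone. The groups overlapped by a narrow margin, at the lowest library with TGF-β alone, and the log2 change of -0.32 ± 0.13 (SE) did not pass (95% interval -0.62 to -0.02, limma adjusted p = 0.547). Without both libraries that stand apart it passed at -0.28 (limma adjusted p = 0.0253), and with the length trend removed it did not (-0.31, limma adjusted p = 0.0874). IRS2 (chromosome 13, 109752698 to 109786568) was at 3.60, 3.58 and 3.38 FPKM with LIG and at 3.30, 3.23 and 3.17 FPKM with TGF-β alone. Its groups did not overlap, but the difference was small (log2 change 0.09, 95% interval -0.05 to 0.24, limma adjusted p = 0.789). IRS2 shares 115 exon bases with an antisense transcript, AL162497.1. IRS1 over IRS2 was 1.67, 1.66 and 1.26 with LIG and 2.28, 1.85 and 2.33 with TGF-β alone, again without overlap. In all, 3 of the 9 tested members did not overlap between the groups (IGFBP3 and IGFBP5 lower with LIG, IRS2 higher), against 15.8% of all genes tested, 6.73% lower and 9.07% higher.

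**Figure D3:**
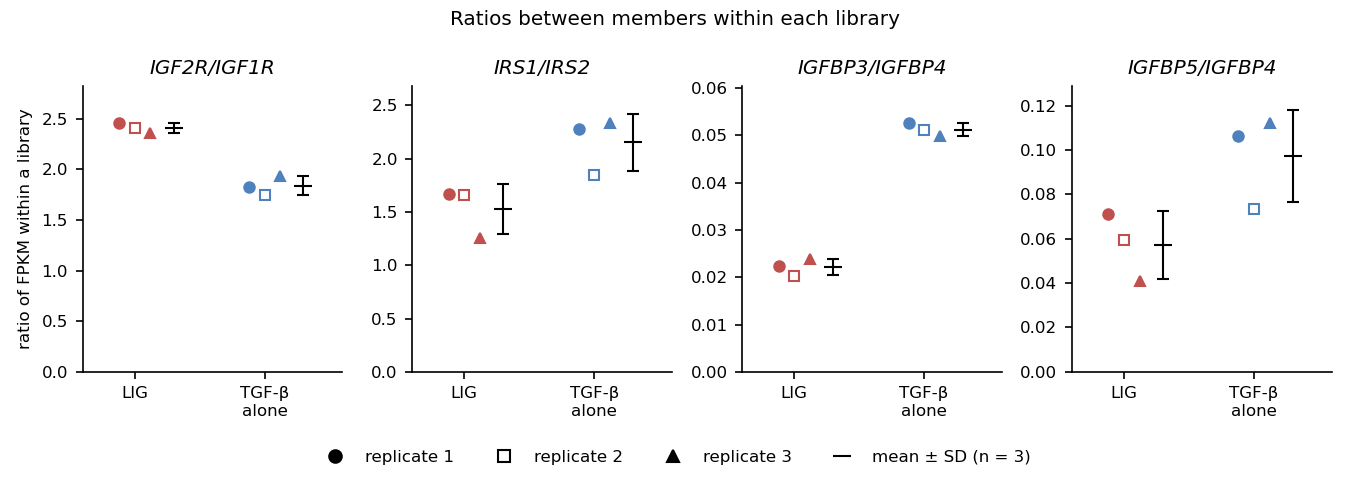
Ratio of the FPKM of 2 members within each library (y axis, linear, from 0), LIG at the left and TGF-β alone at the right of each panel; symbols are replicates and the bar is the mean ± SD (n = 3). IGF2R over IGF1R lies between 2.36 and 2.46 in LIG libraries and between 1.75 and 1.94 with TGF-β alone, and the other 3 ratios plotted are lower in every LIG library; IGFBP3 over IGFBP5, which overlapped, is not plotted.

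**Figure D4:**
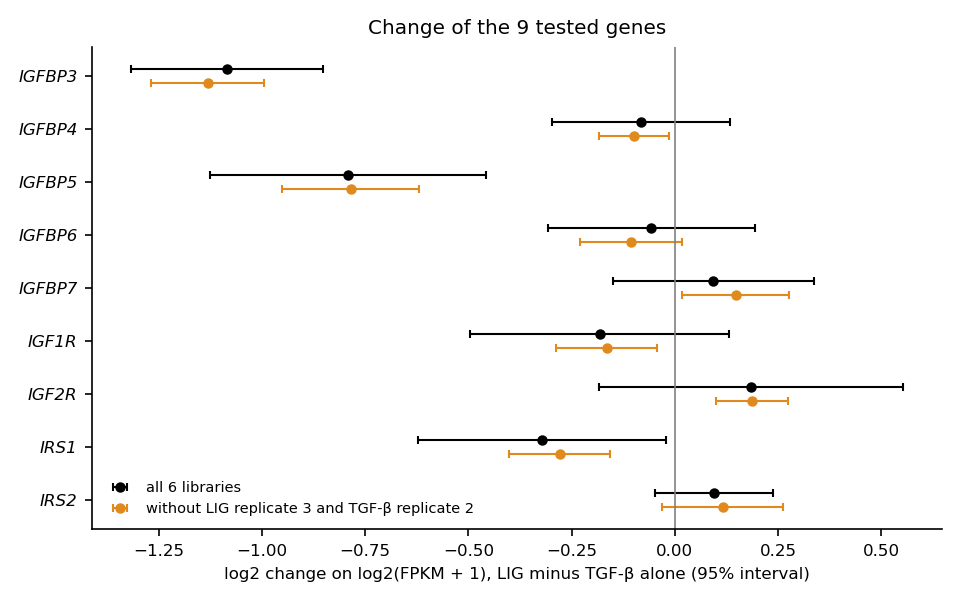
Log2 change on log2(FPKM + 1), LIG minus TGF-β alone, with its 95% interval from limma (x axis), for the 9 tested members, over all 6 libraries (black) and without LIG replicate 3 and TGF-β replicate 2 (orange). IGFBP3 lies at -1.08 and -1.13, and the intervals of the orange points are narrower for 8 of the 9 genes, IRS2 being the exception.

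By level per length, the order with LIG was IGFBP4 (155 ± 14.8 FPKM), IGFBP6 (74.9 ± 10.1), IGF2R (24.2 ± 4.34), IGF1R (10.04 ± 1.64), IGFBP7 (9.96 ± 0.82), IGFBP5 (8.71 ± 1.6), IRS1 (5.40 ± 1.00), IRS2 (3.52 ± 0.12), IGFBP3 (3.44 ± 0.57) and IGFBP2 (SD, n = 3). In that order IGF1R, IGFBP7 and IGFBP5 overlapped in FPKM, as did IRS2 and IGFBP3. With TGF-β alone, after IGFBP4 (164 ± 12.7 FPKM), IGFBP6 (77.8 ± 7.23) and IGF2R (21.2 ± 3.8) came IGFBP5 (15.8 ± 2.51), IGF1R (11.5 ± 1.72), IGFBP7 (9.32 ± 1.41), IGFBP3 (8.38 ± 0.63), IRS1 (6.97 ± 0.87), IRS2 (3.23 ± 0.06) and IGFBP2. There IGF2R overlapped with IGFBP5, IGF1R with IGFBP7, and IGFBP7 with IGFBP3, while IGFBP3 stayed above IRS1 in every library.

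Among the other genes of the IGF system, 0 of 11 tested passed, against 0.692% of all genes tested. An unadjusted limma p below 0.05 was found for 3 of the 11, against 8.4% of all genes tested. The median log2 change of the 11 was 0.02. Of the ligands, IGF2 was at 10.1, 11.3 and 9.37 FPKM with LIG and at 12.1, 10.8 and 13.5 FPKM with TGF-β alone. Its log2 change was -0.22 (limma adjusted p = 0.592). The exons of the annotated entry used here overlap a second entry named IGF2 (5144 bases, same strand), INS-IGF2, AC132217.1 and IGF2-AS. Which IGF2 entry the FPKM values count is not stated. IGF1 had 1 fragment in all, in LIG replicate 1. STC1, which encodes a stanniocalcin that inhibits PAPPA, was at 26.5, 26.0 and 23.2 FPKM with LIG and at 20.2, 17.7 and 19.3 FPKM with TGF-β alone. The groups did not overlap, and the log2 change of 0.39 ± 0.08 (SE) did not pass (limma adjusted p = 0.0970). STC1 did pass without LIG replicate 3 (limma adjusted p = 0.0316) and with the length trend removed (limma adjusted p = 0.0360). It also passed without both libraries that stand apart (limma adjusted p = 0.00139). PAPPA itself averaged 0.886 ± 0.24 FPKM with LIG and 1.37 ± 0.32 FPKM with TGF-β alone (SD, n = 3 each; limma adjusted p = 0.526), and it shares 2450 exon bases with PAPPA-AS1. CTSD, a lysosomal protease able to cleave binding proteins, averaged 47.8 ± 5.45 FPKM with LIG and 42.2 ± 0.66 FPKM with TGF-β alone (limma adjusted p = 0.663). INSR, the insulin receptor, was at 1.1 ± 0.21 FPKM with LIG and 1.00 ± 0.20 FPKM with TGF-β alone.

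Of the signalling genes downstream of the receptors, 0 of 32 tested passed, against 0.692% of all genes tested. An unadjusted limma p below 0.05 was seen in 2, against 8.4% of all genes tested, and the median log2 change of the 32 was 0.03. The range of their changes was -0.12 to 0.25. In 4 of the 32 the groups did not overlap, and all 4 were higher with LIG. Over all genes tested, 15.8% did not overlap and 9.07% were higher without overlap. The smallest adjusted p belonged to PIK3CD, a catalytic subunit of PI3-kinase, at 20.9 ± 0.61 FPKM with LIG and 17.4 ± 1.84 FPKM with TGF-β alone (SD, n = 3 each; limma adjusted p = 0.386). TRIB3, a pseudokinase that binds AKT, was at 3.07 ± 0.12 FPKM with LIG and 2.58 ± 0.28 FPKM with TGF-β alone. The kinase AKT1 was at 65.1 ± 2.87 FPKM with LIG and 60.8 ± 0.32 FPKM with TGF-β alone.

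Genes known as targets of FOXO factors, which AKT keeps out of the nucleus, had a median log2 change of -0.09. Of the 12 tested, 0 passed, against 0.692% of all genes tested, and 3 had an unadjusted limma p below 0.05, against 8.4%. In 5 of the 12 the groups did not overlap, and all 5 were lower with LIG. Over all genes tested, 15.8% did not overlap and 6.73% were lower without overlap. IRS2 and IGFBP1, which are FOXO targets too, were left out of this list, and IRS2 was higher with LIG without overlap. TXNIP, a binder of thioredoxin, was at 13.1, 14.0 and 13.6 FPKM with LIG and at 16.1, 18.3 and 16 FPKM with TGF-β alone (limma adjusted p = 0.222). SESN1, a stress-responsive sestrin, was at 1.91 ± 0.02 FPKM with LIG and 2.26 ± 0.13 FPKM with TGF-β alone. The transcriptional co-regulator CITED2 was at 9.48 ± 0.55 FPKM with LIG and 10.9 ± 0.59 FPKM with TGF-β alone. PIK3IP1, a PI3-kinase inhibitor, was at 3.14 ± 0.03 FPKM with LIG and 3.59 ± 0.22 FPKM with TGF-β alone, and none of the 4 passed. Limma voom on the recovered fragments called 0 genes of the IGF system, signalling and FOXO lists as well.

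Of the proteins outside the family that carry an IGFBP-like domain, 1 of 6 tested passed, against 0.692% of all genes tested. An unadjusted limma p below 0.05 was reached by 3 of the 6, against 8.4% of all genes tested. The median log2 change of the 6 was -0.03. The gene that passed was ESM1, which encodes the proteoglycan endocan, and it rose where IGFBP3 fell. ESM1 was at 30.4, 30.1 and 33.1 FPKM with LIG and at 17.4, 21.1 and 17.9 FPKM with TGF-β alone, without overlap. Its log2 change was 0.70 ± 0.09, with the SE after the sign (limma adjusted p = 0.0131). The call was lost without LIG replicate 1, LIG replicate 2, TGF-β replicate 1 or TGF-β replicate 3 (limma adjusted p from 0.0567 to 0.0903), and also without a filter on low values (0.0922) and with the replicate block (0.0563). The others with an unadjusted p below 0.05 were lower with LIG without overlap and did not pass. These were CCN2, a matricellular growth factor known as CTGF (log2 change -0.30, limma adjusted p = 0.288), and CRIM1, a transmembrane binder of BMPs (log2 change -0.31, limma adjusted p = 0.533). ESM1 shares 44 exon bases with AC034238.1 on its own strand. HTRA1 stands in this list and in that of the IGF system, and INSR in the IGF system list and in that of FOXO targets.

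**Figure D5:**
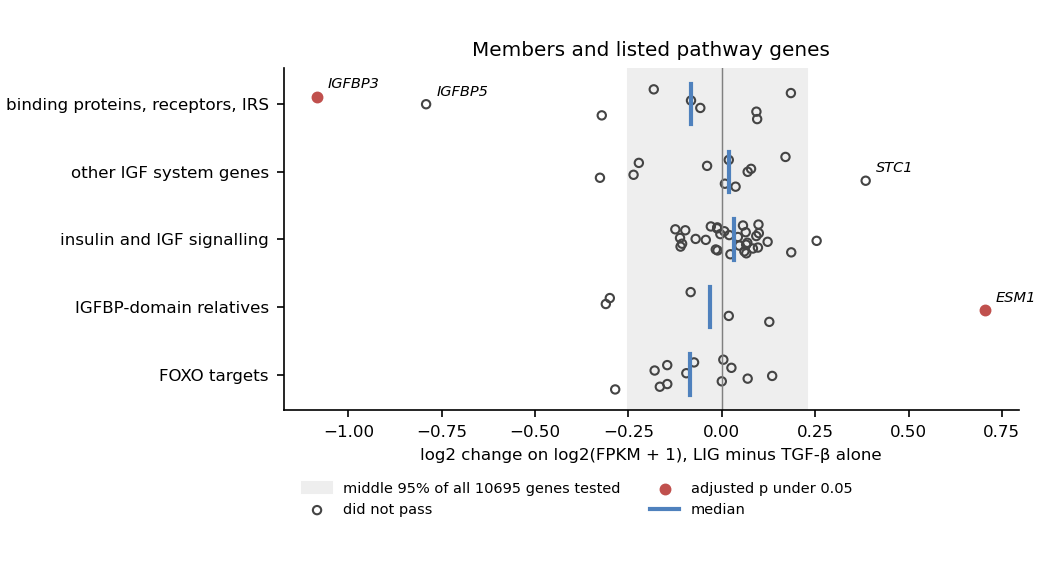
Log2 change on log2(FPKM + 1), LIG minus TGF-β alone (x axis), of the tested members and of the tested genes of each pathway list (rows); filled points passed limma's adjusted p of 0.05, blue bars are medians, and the grey band holds the middle 95% of all genes tested, from -0.25 to 0.23. IGFBP3 at -1.08 and ESM1 at 0.70 are the filled points.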

How the data were processed

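Polyadenylated RNA was sequenced in 6 libraries. The authors deposited FPKM values with 1 column per library; fastp, HISAT2 2.1.0, DESeq2 and GRCh38.p13 are named, with no role, per the submitters' processing notes, and the counting tool, annotation and use of strand are not given in the sources used here. No column was left out. FPKM values of a gene are whole multiples of a step, from which fragments and gene lengths were recovered for all 10695 genes tested, with 100% of their lengths within 0.1 of a whole number of bases. Summed fragments ran from 38250984 to 39101089 per library.

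Limma 3.58.1 was fitted to log2(FPKM + 1) of genes whose mean FPKM reached 1 (group term, trended empirical Bayes, 4 residual and 4.1 prior degrees of freedom, two-sided), adjusted over all genes tested. The 19 alternatives were pseudocounts of 0.1 and 0.5, no filter, a mean of at least 5 FPKM, median centring, TPM, quantile normalization, robust limma, untrended limma, a replicate block, leaving out each library, leaving out both that stand apart, voom on fragments, and removal of a loess trend on log10 length, the last added after seeing the data. The limma step was tested on simulated data. Their noise was independent between genes and held no trend on length, so that test does not cover the libraries that stand apart.

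The members and lists were chosen with earlier results of these data known. Named genes were the members and, per list, those that passed or otherwise the 4 with the smallest adjusted p. One of them is not reported here. IGF1, IGFBP1, INSR, CCN2, CRIM1 and the markers were named outside this rule, after their values were seen. Of the list genes, 6 symbols did not match the table and were not analysed here. Promoter sequences are RefSeq's (GRCh38.p14). Python 3.11.15 and R 4.3.3 were used.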

Additional observations from a re-analysis of the deposited data

How the results depend on the processing

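Over the 19 alternatives the log2 change of IGFBP3 stayed between -1.32 and -1.02, and its call was lost once, without a filter on low values (adjusted p = 0.0608). IGFBP5 passed under 2 alternatives, IGF2R and IRS1 under 1 each, and IGFBP4, IGFBP7, IGF1R and IRS2 kept direction and call in every alternative run for them. IGFBP6 changed sign without LIG replicate 2 (0.00217) and without TGF-β replicate 2 (0.00122), in a range of -0.16 to 0.00217 with 1 library left out. Of all genes tested, 14 were called without a filter, 497 without both libraries that stand apart and 280 with the length trend removed, against 74; leaving out 1 library gave 11 to 93. The members called were 0 without a filter, 4 without both libraries and 2 with the trend removed, and 1 whichever library was left out. IGF system genes called were 2 without both libraries and 1 with the trend removed (0 to 1 with 1 library left out), signalling genes 1 without both libraries, and FOXO targets 1 under each of these 2 fits. IGFBP-domain relatives called were 0 without a filter, 2 after TPM rescaling or quantile normalization, 3 without both libraries and 3 with the trend removed (0 to 1 with 1 library left out). Over all genes tested, TPM rescaling gave 86 calls and quantile normalization 107, against 74. The causes of these shifts were not tested. Leaving out libraries leaves fewer samples, and the length trend removed was fitted to these same libraries, which can narrow their spread. With the replicate number as a block, 22 genes were called over all genes, 1 member (IGFBP3, limma adjusted p = 0.0276) and 0 IGFBP-domain relatives. Deviations of same-numbered libraries from their group means correlated at 0.469, -0.574 and -0.337 for replicates 1, 2 and 3. Both libraries that stand apart weigh on these values, so whether the numbers pair libraries cannot be told from them. Limma voom on the fragments called 84 genes. Depth limits only IGFBP2 among the members.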
